A study of Mus musculus with 5 samples.

Results

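Neurexins, neuroligins, contactin-associated proteins of the Cntnap family and the Dpp6 family were followed in 9 genes: Nrxn2, Nrxn3, Nlgn1, Nlgn2, Nlgn3, Cntnap2, Cntnap5a, Dpp6 and Dpp10. The genes were taken by symbol from the deposited tables, which held 55573 genes, and each symbol matched 1 row. RNA sequencing had been made of 3 tumours and of 2 normal pancreas samples from mice. The tumour mice had the genotype given as Th-Cre:MYC, bred from a TH-Cre line and a CAG-STOPflox/flox-MYC line, so that Cre driven by the tyrosine hydroxylase promoter removes a stop in front of a MYC transgene. The controls were wild-type littermates without either construct named, and their pancreas was perfused with an RNase inhibitor before it was removed. The labels do not give the age or sex of the mice, a batch, or whether the tumours were perfused. The titles of tumour replicates 1 and 2 carry the same number, 86, and it is not stated whether they came from one mouse, so p-values reflect only how these samples vary, and that variation may be technical.

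Neurexins are cell-surface proteins of the presynaptic membrane that bind neuroligins on the facing cell, and the contact organises synapses. Nlgn1 acts mainly at excitatory synapses, Nlgn2 at inhibitory synapses, and Nlgn3 at both kinds. Pancreatic islet cells also use neuroligins and neurexins, and Nlgn2 on beta cells has been linked to insulin secretion. The Cntnap proteins resemble neurexins in their extracellular domains. Cntnap2 holds potassium channels of the Kv1 type beside the nodes of myelinated axons. Dpp6 and Dpp10 are relatives of the peptidase Dpp4 that have lost the enzyme activity and serve as auxiliary subunits of Kv4 potassium channels. DPP6 is also a surface protein of human islet endocrine cells.

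Library totals ran from 6611962 to 51669476 rounded estimated counts, and the library sizes after TMM scaling from 13225679 to 37625958. TMM is the scaling edgeR uses to compare libraries. Its factors were 0.271 and 0.263 for the normal libraries and 2.50, 2.57 and 2.19 for tumour replicates 1, 2 and 3. CPM below is the count divided by that scaled size, in the usual CPM unit, and so is no share of the library total. The 8 acinar genes, which mark normal exocrine pancreas, were all lower in the tumours and summed to 943294 and 980373 CPM in normal pancreas against 34.5, 21.1 and 877 CPM in the tumours. All 8 pan-endocrine markers were higher in the tumours and summed to 4287, 2321 and 4747 CPM against 11.5 and 10.9 CPM. Of 8 neuron markers 7 were higher, with sums of 171, 95.7 and 131 CPM against 3.18 and 1.10 CPM, and 5 of them had 0 counts in both normal libraries. The sums of 8 Schwann cell and glia markers were close, at 29.4, 26.0 and 28.6 CPM across the tumours against 40.8 and 37.9 CPM in the controls, and nearly all of it was Mbp. Sox10, the defining transcription factor of that lineage, had 2, 1 and 1 counts in the tumours. These are mixed tissues, in which more cells of a type and more RNA per cell cannot be told apart, and the part of the pan-endocrine and neuron markers in the results below was not tested.

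All 9 genes had more CPM in every tumour than in either normal library. Of the 9, 8 had enough counts to be tested, and all 8 were called higher in the tumours (edgeR quasi-likelihood test, adjusted p under 0.05). No member was called lower, at an unadjusted p under 0.05 or with DESeq2 either. Over all 16810 genes tested, 39.2% were called higher, 27.8% lower and 67% in either direction. Between 6 and 9 members were called higher in the 14 other settings. The 6 were called without normal pancreas replicate 1, where 26% of all genes were called higher, and with limma on log2(TPM + 1), where 63.4% were. It was 7 without normal replicate 2 (26.2% of all genes), with limma on log2(TPM + 0.1) (68.8%) and among protein-coding genes outside the 50 most counted in the controls (42.2%). It was 8 with DESeq2 (32.8%), upper-quartile scaling (41.9%), protein-coding genes only (35.8%), total counts only (93.3%) and without tumour replicate 2 (39%). All 9 were called with no low-count filter (25.5%), with tumours 1 and 2 summed (41.8%), without tumour replicate 1 (38.9%) and without tumour replicate 3 (37.2%). Among tested genes with 3 or fewer counts in normal pancreas, a group that holds 6 of the 8, 88.7% were called higher, because such a gene enters the test through its tumour counts. CPM did not overlap, with every tumour above both normal libraries, for 46.8% of tested genes and for 95.2% of those with 3 or fewer normal counts. The count of 8 is near the background of genes nearly absent from normal pancreas.

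**Figure D1:**
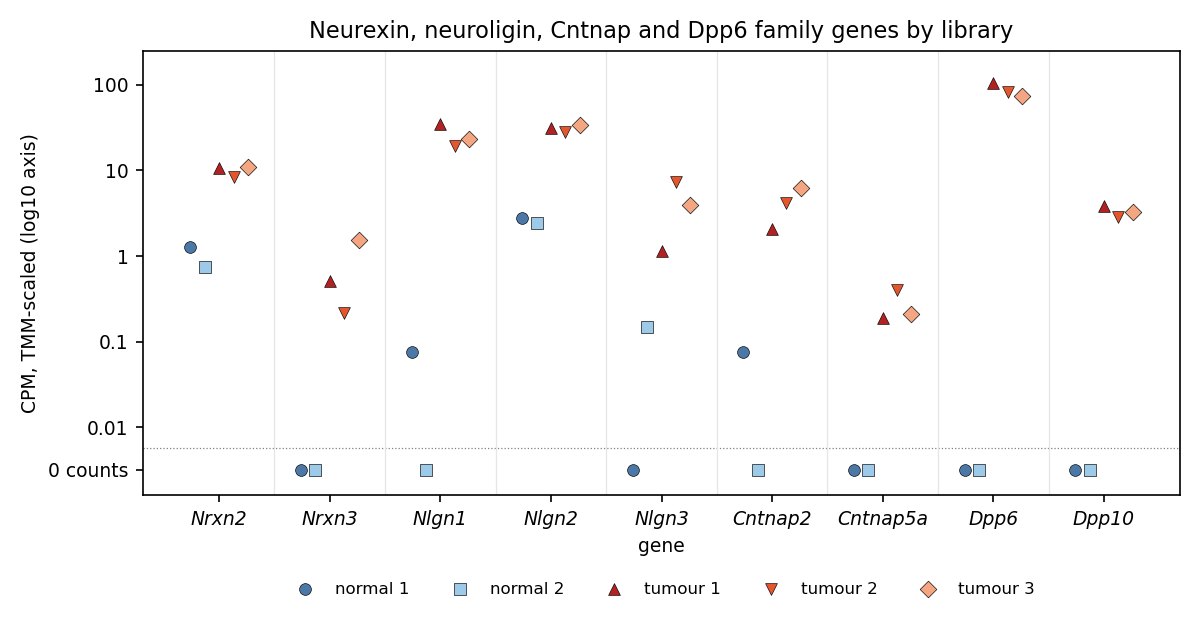
TMM-scaled CPM of the 9 genes in each library on a log10 axis, with libraries at 0 counts drawn below the dotted line; each symbol is 1 library. Dpp6 is highest in every tumour and at 0 counts in both normal libraries, and Nlgn2 and Nrxn2 are the genes seen in both normal libraries.

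Promoter windows are shown first for genes whose levels differed most in normal pancreas. Each line is the 250 bases before an annotated transcription start, from RefSeq on GRCm38.p6, with every CpG in capitals; 6 of the 9 genes had an entry, with 12 starts. Nlgn2, the neuroligin with counts in both normal libraries, has 18 CpG here (chr11:69837785-69838034, minus strand). Dpp10 (chr1:124045560-124045809, minus strand) and the most downstream Dpp6 start (chr5:27261685-27261934, plus strand), both of genes at 0 counts in normal pancreas, have 14 and 10. The other Dpp6 starts have 8 and 6, and those of Nrxn3, also at 0 normal counts, have 2, 5 and 12. Those of Cntnap2 have 13 and 3 and those of Nlgn1 have 9 and 5, each a gene with 1 count in normal pancreas. Whether CpG number goes with level was not tested.
Nlgn2: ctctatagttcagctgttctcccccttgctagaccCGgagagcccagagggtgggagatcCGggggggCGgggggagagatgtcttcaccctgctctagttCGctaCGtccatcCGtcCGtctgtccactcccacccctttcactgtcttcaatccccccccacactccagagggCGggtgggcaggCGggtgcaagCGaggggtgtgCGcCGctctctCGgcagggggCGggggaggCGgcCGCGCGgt
Dpp10: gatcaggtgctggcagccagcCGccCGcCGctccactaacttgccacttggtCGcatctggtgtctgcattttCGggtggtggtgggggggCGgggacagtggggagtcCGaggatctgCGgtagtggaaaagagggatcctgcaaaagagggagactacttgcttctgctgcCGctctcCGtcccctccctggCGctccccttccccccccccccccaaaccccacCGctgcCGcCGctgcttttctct
Dpp6: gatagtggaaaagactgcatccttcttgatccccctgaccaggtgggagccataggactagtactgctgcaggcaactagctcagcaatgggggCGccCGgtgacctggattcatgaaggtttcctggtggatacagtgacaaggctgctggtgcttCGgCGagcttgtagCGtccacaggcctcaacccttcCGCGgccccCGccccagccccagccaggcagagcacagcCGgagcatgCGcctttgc
By GC content of at least 50% and an observed-to-expected CpG ratio of at least 0.6, 2 of the 12 windows were CpG-rich, those of Nlgn2 and the upstream Cntnap2 start, against 31% of 32851 windows of the same length.

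Motif letters were also searched on both strands of the same windows. The canonical E-box CACGTG, which MYC with its partner MAX binds, was in none of the 12 windows and in 6.02% of all windows. The left part of the RE1 element, TTCAGCACC, to which the repressor REST of neuronal genes binds, was in 1 of the 12 and in 0.301% of all windows. The right part of RE1, searched with its consensus, was in none of the 12 and in 0.0974% of all. The letters TATAAA were in 1 of the 12, the upstream Dpp6 start, on the strand opposite to the gene, and in 12.4% of all. In that window 154 of the 250 bases lie in a GENCODE exon, as do all 250 of the upstream Nlgn1 window. The RE1 letters lie 153 to 145 bases before the inner Nlgn1 start (chr3:26153987-26154236, minus strand) and are the capitals in the next line.
Nlgn1: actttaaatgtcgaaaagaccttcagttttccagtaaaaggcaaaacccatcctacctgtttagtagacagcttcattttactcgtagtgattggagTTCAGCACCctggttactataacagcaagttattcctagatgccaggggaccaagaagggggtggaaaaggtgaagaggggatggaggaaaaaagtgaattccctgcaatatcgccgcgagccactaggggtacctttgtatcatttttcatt
A match is a description of letters and not a site, and none of these windows was measured for binding.

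Dpp6 was the most abundant of the 9 genes in the tumours. Dpp6 (ENSMUSG00000061576.15, GRCm38, chromosome 5, 26817203 to 27727505, + strand) had 3940, 2643 and 1065 counts in tumour replicates 1, 2 and 3 and 0 counts in both normal libraries. That was 105, 81.9 and 73.8 CPM, a spread of 1.42-fold between the highest and lowest tumour. A count of 0 in both normal libraries allows up to 0.112 CPM, taken as 3 counts over the group, so Dpp6 was at least 810-fold higher in tumour (edgeR adjusted p = 3.36e-05). With either normal library left out, the lower bound was 410-fold or 400-fold, since less depth then stands behind the 0, and every bound against 0 normal counts given below falls in the same way. On the length-corrected TPM scale it had 23.22, 17.68 and 13.08 TPM, which placed it at rank 950 of 21900 protein-coding genes by mean tumour TPM.

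Dpp10, its paralogue, followed at a level far below. Dpp10 (ENSMUSG00000036815.16, chromosome 1, 123321471 to 124045559, - strand) had 146, 93 and 47 counts in the tumours and 0 in both normal libraries. Its tumour levels were 3.88, 2.88 and 3.25 CPM, or 0.78, 0.64 and 0.51 TPM. It was at least 30.3-fold higher in tumour (edgeR adjusted p = 0.00039), and at least 15.3-fold or 14.9-fold without the first or the second normal library. In each tumour, Dpp6 was above Dpp10 on the TPM scale, and the ranges did not overlap.

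Among the neuroligins, Nlgn2 was present in both tissues and Nlgn1 almost only in tumour libraries. Nlgn2 (ENSMUSG00000051790.15, chromosome 11, 69823122 to 69837784, - strand) had 37 and 33 counts in the controls and 1196, 919 and 492 in tumour. Its levels were 2.80 and 2.43 CPM in the controls and 31.8, 28.5 and 34.1 CPM in tumour, the smallest spread between tumours of the 9 genes at 1.20-fold. It rose by 3.58 log2 units (SE 0.18, edgeR adjusted p = 3.2e-05), and by between 2.55 and 6.75 in 14 other settings, all of which called it higher.

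Nlgn1 (ENSMUSG00000063887.13, chromosome 3, 25426215 to 26332460, - strand) had 1 and 0 counts in the controls and 1302, 626 and 334 in tumour. The tumour levels of 34.6, 19.4 and 23.1 CPM were close to those of Nlgn2, with tumour replicate 1 the highest. The ratio of pooled counts was 719-fold with a 95% exact interval of 129 to 28401, which covers counting error only (edgeR adjusted p = 7.14e-05). Without the first normal library, which held the only normal count, Nlgn1 was at least 121-fold higher, and without the second the ratio was 355. Nlgn1 exons overlap those of A830092H15Rik, an antisense gene with 98, 20 and 14 tumour counts and 0 in both normal libraries. The labels do not state whether counting used strand.

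Nlgn3 was the scarce neuroligin and the one that varied most between tumours. Nlgn3 (ENSMUSG00000031302.16, chromosome X, 101299168 to 101325963, + strand) had 42.93, 233.89 and 56.29 estimated counts in the tumours and 0 and 2 in normal pancreas. Its levels of 1.14, 7.24 and 3.90 CPM spanned 6.35-fold, with tumour replicate 1 the lowest and replicate 2 the highest. The ratio of pooled counts was 52.9-fold with an interval of 14.5 to 439 (edgeR adjusted p = 0.00796). The ratio was 26.8 without normal pancreas replicate 1, at least 17.4 without replicate 2, 83.2 without tumour replicate 1 and 25.5 without tumour replicate 2. The call was lost without normal pancreas replicate 1 (edgeR adjusted p = 0.0570) and with limma on log2(TPM + 1) (adjusted p = 0.0578). Nlgn3 shares exons with Gm21986, an annotated transcript gene on the same strand with 18.31, 6.53 and 9.43 tumour counts. Gm21986 also had 3.45 counts in the first normal library, where Nlgn3 had 0, and 0 in the second. RSEM splits reads between these genes, so the ratio and bounds of Nlgn3 are uncertain, and another split was not tried.

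Within the neuroligins, Nlgn2 held nearly all of the TPM in normal pancreas and shared it with Nlgn1 in the tumours. Nlgn2 made up 95.5% and 95.7% of the summed TPM of the 3 neuroligins in normal pancreas and 49.4%, 49.8% and 57.2% in tumour. Nlgn1 made up 4.55% and 0% in the controls and 48.8%, 36.8% and 38.4% in tumour. Neither share overlapped between the tissues, and the exact permutation p was 0.1 for each, the smallest that 3 against 2 libraries allow (adjusted p = 0.15 over 3 shares). Nlgn3 made up 0% and 4.35% in the controls and 1.74%, 13.4% and 4.38% in tumour, which overlapped (exact permutation p = 0.5). The normal shares rest on 37 and 33 counts of Nlgn2 and at most 2 of any other neuroligin.

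**Figure D2:**
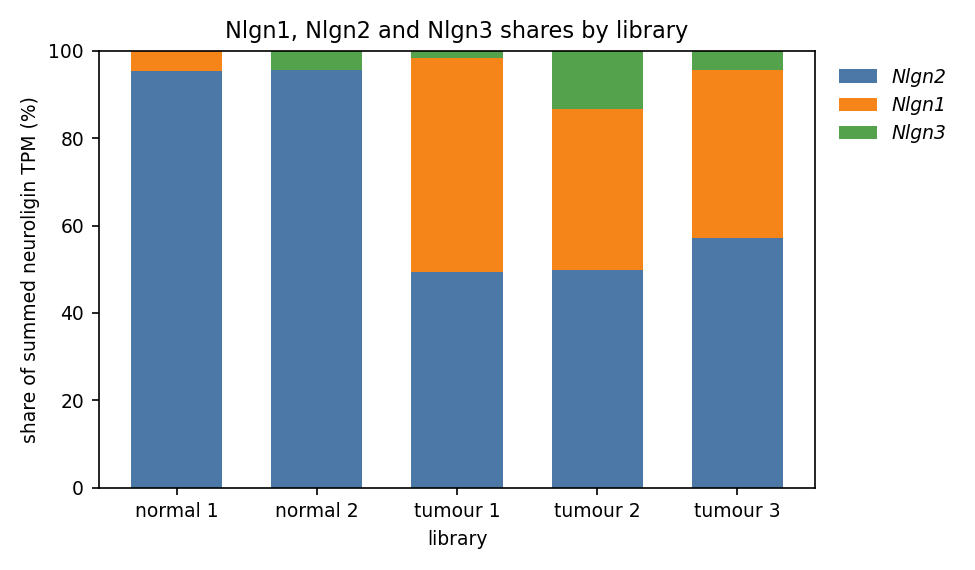
Share of the summed neuroligin TPM held by Nlgn1, Nlgn2 and Nlgn3 in each library, in percent; each bar is 1 library. Nlgn2 holds over 95% in both normal libraries and 49.4% to 57.2% in the tumours, where Nlgn1 holds most of the rest.

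The neurexins were less abundant than Nlgn1 and Nlgn2 in the tumours. Nrxn2 (ENSMUSG00000033768.17, chromosome 19, 6418731 to 6544169, + strand) had 17 and 10 counts in the controls and 405, 269 and 160 in tumour. Its levels were 1.29 and 0.736 CPM against 10.8, 8.33 and 11.1 CPM, with a gap between the groups wider than the spread in either. It rose by 3.31 log2 units (SE 0.31, edgeR adjusted p = 0.000227), and by between 1.72 and 6.46 in 14 other settings, all of which called it higher. Its exons overlap those of Gm14964, an antisense gene with 51, 30 and 13 tumour counts, and the labels do not state whether counting used strand.

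Nrxn3 was near the floor. Nrxn3 (ENSMUSG00000066392.11, chromosome 12, 88722876 to 90334935, + strand) had 19, 7 and 22 counts in the tumours and 0 in both normal libraries. Its tumour levels were 0.505, 0.217 and 1.52 CPM, a spread of 7.03-fold, the widest of the 9 genes. It was at least 5.08-fold higher in tumour (edgeR adjusted p = 0.031), 3.32-fold without tumour replicate 3, and 2.58-fold or 2.51-fold without the first or second normal library. It was no longer called with only the second control (edgeR adjusted p = 0.0912) or only the first (0.0931), or with limma on log2(TPM + 1) (0.115) and log2(TPM + 0.1) (0.0553). Nrxn3 lost its call in 4 of 13 other settings, the most of the 8 tested genes.

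The Cntnap genes were low in the tumours and nearly absent from normal pancreas. Cntnap2 (ENSMUSG00000039419.17, chromosome 6, 45059357 to 47304213, + strand) had 1 and 0 counts in the controls and 77, 135 and 91 in tumour. Its tumour levels of 2.05, 4.18 and 6.30 CPM were lowest in replicate 1, the replicate in which Dpp6 and Nlgn1 were highest. The ratio of pooled counts was 96.3-fold with an interval of 17.1 to 3815 (edgeR adjusted p = 0.00154). It was at least 16.3-fold without the first normal library and 47.5-fold without the second. Cntnap5a (ENSMUSG00000070695.4, chromosome 1, 115684756 to 116587323, + strand) had 7, 13 and 3 counts in the tumours and 0 in normal pancreas, and was too low to test. Its bound was at least 2.44-fold, or 1.23-fold and 1.20-fold without either normal library. In 7 settings that tested it, Cntnap5a was called higher in 4, with edgeR adjusted p from 0.0125 to 0.0364, and not by DESeq2 (adjusted p = 0.0688) or edgeR without the first (0.0772) or second (0.0783) normal library.

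On the per-length TPM scale the tumour order was Dpp6 at 17.99 TPM ± 5.08 (SD, n = 3), Nlgn2 at 6.18 ± 1.29, Nlgn1 at 5.08 ± 2.16 and Nrxn2 at 2.91 ± 0.877. Below these came Cntnap2 at 0.913 ± 0.293, Nlgn3 at 0.713 ± 0.642, Dpp10 at 0.643 ± 0.135, Nrxn3 at 0.123 ± 0.0961 and Cntnap5a at 0.02 ± 0.01 TPM. The range of Dpp6 over tumours lay above that of Nlgn2, that of Nrxn2 above that of Cntnap2, and that of Dpp10 above that of Nrxn3. The other neighbours overlapped, although Nlgn2 was above Nlgn1 and Nlgn1 above Nrxn2 within each of the 3 tumours. Dpp6 alone held 52.5%, 54.2% and 48.7% of the summed TPM of the 9 genes.

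Nearest to Dpp6 in log2(TPM + 1) over the 5 libraries, among 14062 tested protein-coding genes, was Gucy2c, a guanylate cyclase receptor, at a Euclidean distance of 0.161. Gucy2c had 23.67, 17.68 and 11.61 TPM in the tumours and 0 in both normal libraries. Bex4 followed at 0.335, Sez6l at 0.415, Kif12 at 0.428 and Ogdhl at 0.431. These distances are a description over 5 libraries and carry no test.

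RSEM also reports, for each gene and library, the mean length of its transcripts weighted by their estimated abundance. Neurexin genes make long alpha and short beta forms from separate promoters, and Nrxn2 has 18 listed transcripts of 547 to 6667 bases. Its weighted length was 2643, 3019 and 3501 bases in the tumours and 1561 and 3503 bases in normal pancreas, which overlapped. The shorter value in the first normal library gave 0.28 TPM there against 0.07 TPM in the second, although the counts were 17 and 10. Nrxn3 has 13 listed transcripts, and in tumour replicates 2 and 3 its weighted length was 7922 bases, that of the longest listed transcript, against a weighted length of 2346 bases in replicate 1. Its 19 counts in replicate 1 were therefore 0.21 TPM and its 22 in replicate 3 only 0.14 TPM. Dpp6 varied least among the well-counted genes, with 4218, 4073 and 4134 bases in the tumours and a longest listed transcript of 4720 bases. Nlgn1 had 4273, 4289 and 4578 bases, Nlgn2 had 3894, 4630 and 4537 bases in tumour against 4295 and 3379 in normal pancreas, and no test was made of lengths.

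Of the 9 genes, 6 span 500 kb or more of the genome: Cntnap2 spans 2244.9 kb, Nrxn3 1612.1 kb, Dpp6 910.3 kb, Nlgn1 906.2 kb, Cntnap5a 902.6 kb and Dpp10 724.1 kb. Nrxn2 spans 125.4 kb, Nlgn3 26.8 kb and Nlgn2 14.7 kb. Of 172 other tested genes of 500 kb or more, 63.4% were called higher and 10.5% lower, against 39.2% and 27.8% of all tested genes. Their median log2 fold change was 2.58 against 0.38 over all tested genes, and 56 of the 172 had 3 or fewer counts in normal pancreas.

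Counts were also present at gene models that lie inside the introns of these long genes on the same strand, with no exon shared, and that the annotation leaves unclassified or calls sense intronic. Pseudogenes and small RNA genes there were left out. Cntnap2 holds 22 of them, of which 19 had counts, with 102, 111 and 49 counts in the tumours and 0 in both normal libraries. That was 132%, 82.2% and 53.8% of the counts of Cntnap2 itself. Inside Dpp6, 2 such models had 310, 143 and 68 tumour counts, or 7.87%, 5.41% and 6.38% of Dpp6. Inside Dpp10, 7 models had 20, 3 and 7 tumour counts. Whether these counts come from unspliced RNA of the host genes was not tested.

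Of the other Cntnap genes, 3 were tested and all rose. Calls of a rise were 39.2% over all tested genes and 88.7% among those with 3 or fewer normal counts. Cntnap4 had 0 counts in the controls and 1.44, 3.04 and 1.45 CPM across the tumours, a difference of at least 18.3-fold (edgeR adjusted p = 0.00228). Cntnap5b, at 16.3, 1.61 and 9.63 CPM across the tumours and 0 in normal pancreas, was at least 85.4-fold higher (edgeR adjusted p = 0.0101), with tumour replicate 2 far below the others, and at least 36.5-fold higher without tumour replicate 1. Cntnap1, which forms the axon-glia junction beside the node, rose by 2.97 log2 units (SE 0.40, edgeR adjusted p = 0.000957). Cntnap3, with 2, 0 and 1 tumour counts, and Cntnap5c, at 0 counts in all libraries, were not tested.

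The catalytically active peptidases related to Dpp6 were present in both tissues. Dpp4 had 5.22 and 4.71 CPM in the controls and 14.1, 7.19 and 8.10 CPM in tumour (log2 0.99, SE 0.33, edgeR adjusted p = 0.0366). Dpp8, a cytosolic relative, had 29.5 and 36.8 CPM against 50.4, 44.5 and 55.9 CPM (log2 0.60, SE 0.17, edgeR adjusted p = 0.0195). Dpp9, a further cytosolic relative, had 57.2 and 60.8 CPM against 20.6, 15.02 and 20.5 CPM and fell by 1.66 (SE 0.18, edgeR adjusted p = 0.000369), but rose by 1.52 with total counts only. Its fall did not pass with limma on log2(TPM + 0.1) (log2 -0.33, adjusted p = 0.175) or log2(TPM + 1) (log2 -0.28, adjusted p = 0.179). Fap, a fibroblast peptidase, was not called either way, with a log2 value of 0.13 (SE 0.47, edgeR adjusted p = 0.811). Dpp4 lost its call without the first (edgeR adjusted p = 0.126) or second (0.163) normal library, and Dpp8 without the first (0.163). Among all tested genes 39.2% were called higher and 27.8% lower. Of the 9 genes in this list, 7 were tested, 5 rose, 1 fell and 1 did not pass, with a median log2 fold change of 0.99. Without normal pancreas replicate 1, 3 of them were called higher.

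The Kv4 channels and their KChIP subunits, the partners of Dpp6 and Dpp10 in the channel complex, differed by member between the tissues. All 7 were tested, of which 4 rose, 2 fell and 1 did not pass, with a median log2 fold change of 3.997 against 0.38 over all tested genes. Calls over all tested genes were 39.2% higher and 27.8% lower, and 3 of the 7 had 3 or fewer normal counts. In normal pancreas the leading genes were the pore-forming subunit Kcnd3, at 9.90 and 11.6 CPM, and the calcium-binding subunit Kcnip2, at 8.09 and 9.65 CPM. In the tumours Kcnd3 had 0.186, 0.124 and 0.485 CPM and Kcnip2 had 0.372, 0.588 and 0.277 CPM. Kcnd3 fell by 5.53 log2 units (SE 0.46, edgeR adjusted p = 0.000143) and Kcnip2 by 4.35 (SE 0.35, edgeR adjusted p = 0.00012), and both were also called lower with total counts only.

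The Kv4 partners that rose were Kcnd1, Kcnd2, Kcnip1 and Kcnip4. Kcnip1 had 15.3, 11.1 and 12.9 CPM across the tumours and 2 counts in normal pancreas, a ratio of 178 with an interval of 49.1 to 1471 (edgeR adjusted p = 9.62e-05). Both normal counts were in the first library, without which it was at least 60.1-fold higher, and the ratio was 87.8 without the second. Kcnip4 had 0 counts in the controls and 6.88, 5.11 and 3.88 CPM in tumour, at least 50.8-fold higher (edgeR adjusted p = 0.000376). Kcnd1 had 0.302 and 0 CPM against 2.47, 1.95 and 3.05 CPM (log2 3.997, SE 0.86, edgeR adjusted p = 0.00671). Its ratio of pooled counts was 15.9, at least 10.7 without the first normal library, which held all 4 normal counts, and 7.84 without the second.

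Kcnd2, with 1 count in normal pancreas, had 0.904, 14.7 and 8.52 CPM in the tumours, and replicate 1 stood well below the others. Its ratio was 200.5 with an interval of 35.9 to 7932 (edgeR adjusted p = 0.0119). The ratio was at least 33.9 without the first normal library, 98.9 without the second, 342 without tumour replicate 1 and 80.8 without tumour replicate 2. The call was lost without the first (edgeR adjusted p = 0.0673) or second (0.0815) normal library and with limma on log2(TPM + 1) (0.0650). Kcnip3 had 0.611, 4.18 and 5.47 CPM in the tumours against 0.907 and 1.10 CPM and did not pass (edgeR adjusted p = 0.131). It passed as higher in 5 of 14 other settings: without tumour replicate 1 (0.00217), with total counts only (0.00201), with tumours 1 and 2 summed (0.0163), and with limma on log2(TPM + 0.1) (0.0203) and log2(TPM + 1) (0.0462). By CPM, Kcnd2, Kcnip3, Nlgn3, Cntnap2 and Cntnap5a were each lowest in tumour replicate 1. Dpp6, Dpp10, Nlgn1, Kcnip1 and Kcnip4 were each highest there, and the other members and Kv4 partners were neither.

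**Figure D3:**
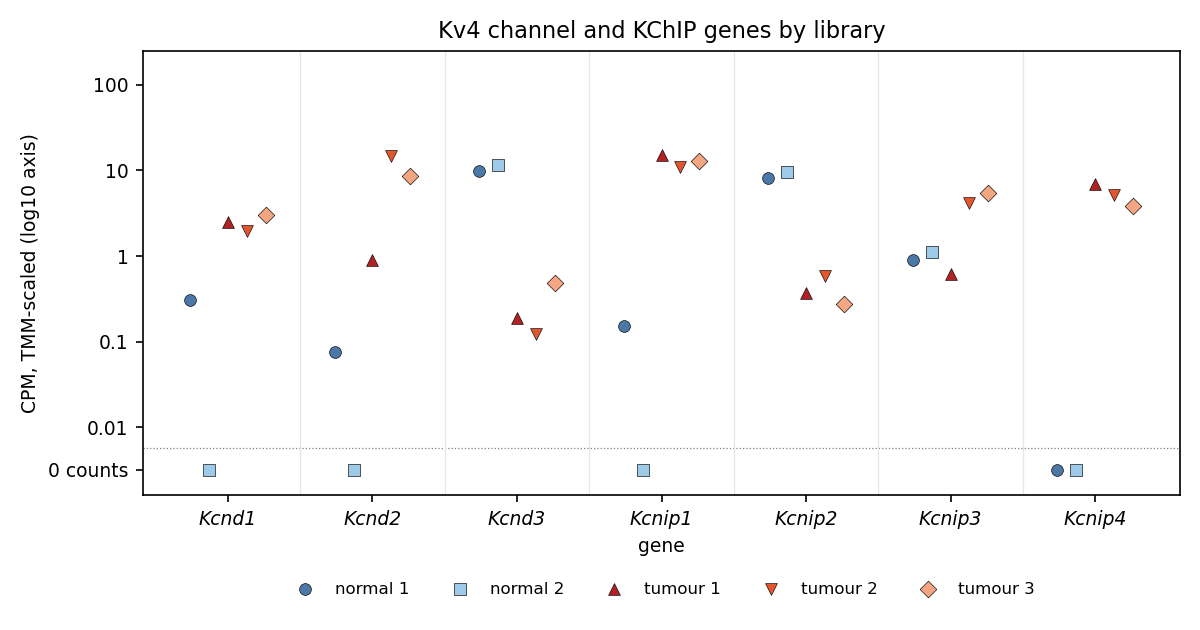
TMM-scaled CPM of the 7 Kv4 channel and KChIP genes in each library on a log10 axis, with libraries at 0 counts drawn below the dotted line; each symbol is 1 library. Kcnd3 and Kcnip2 are higher in both normal libraries than in any tumour, while Kcnip1 and Kcnip4 are higher in every tumour.

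Binding partners of neurexins outside the cell rose in 10 of 13 tested cases and fell in 3, of 23 listed. The median log2 fold change was 3.83, or 2.99 when each gene without counts in one tissue takes its lower bound. Over all tested genes 39.2% were called higher and 27.8% lower. Of the 13, 6 had 3 or fewer normal counts, a group in which 88.7% of tested genes were called higher. Adgrl1, a latrophilin receptor that binds neurexins, had 4.46 and 5.23 CPM in the controls and 91.03, 101 and 104 CPM in tumour (log2 4.35, SE 0.18, edgeR adjusted p = 2.37e-05). Adgrl2 rose by 3.42 (SE 0.28, edgeR adjusted p = 0.00013). Of the neurexophilins, secreted ligands of neurexins, Nxph1 and Nxph3 rose, Nxph2 fell and Nxph4 was not tested. Nxph1 had 1 count in the controls and 6.09, 6.57 and 7.48 CPM in tumour, a ratio of 174 with an interval of 31.2 to 6902. It was 88.4 without the first normal library and at least 28.7 without the second. Nxph3, named here after its values were seen, had 1.06, 0.681 and 0.485 CPM in tumour and 3 counts in the controls, a ratio of 7.31 with an interval of 2.399 to 36.3 (edgeR adjusted p = 0.0143). Its ratio was 11.1 without the first normal library and 5.41 without the second, and its call was lost without either. Nxph2 had 4.84 and 3.61 CPM in the controls and 0 counts in all tumours, at least 119-fold lower (edgeR adjusted p = 0.00055), also with total counts only, and at least 65.7-fold or 73.2-fold lower without tumour replicate 1 or 2. Clstn1, a calsyntenin, fell by 2.65 and Dag1, dystroglycan, by 1.48, but both were higher with total counts only (log2 0.52 and 1.70). Without either normal library, 6 of the 13 were called higher.

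Of 11 adaptors inside the presynaptic cell 8 were tested, of which 5 rose and 2 fell, and the median was 1.42. Here 2 of the 8 had 3 or fewer normal counts, and all tested genes were called higher in 39.2% and lower in 27.8%. The liprin gene Ppfia2 had 6.19, 8.76 and 13.4 CPM across the tumours and 1 count in normal pancreas, a ratio of 226 with an interval of 40.4 to 8923. It was at least 38.1 without the first normal library and 111 without the second. Ppfia3, a further liprin, rose by 4.11 (SE 0.36, edgeR adjusted p = 0.000165), and Lin7c by 0.69 (SE 0.13, edgeR adjusted p = 0.00465), a call lost without the first normal library (0.0554). Apba1 fell by 0.90 and Ppfia1 by 0.64, and both were higher with total counts only. Apba1 was not called without the first (edgeR adjusted p = 0.0652) or second (0.210) normal library, nor Ppfia1 without the second (0.113). In this list 2 genes were called higher and 1 lower without the first normal library, and 3 higher and 0 lower without the second.

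All 17 partners and scaffolds of neuroligins were tested, of which 9 rose, 2 fell and 6 did not pass, with a median of 1.08. The shares over all tested genes were 39.2% higher and 27.8% lower, and 3 of the 17 had 3 or fewer normal counts. Dlg4, which encodes the excitatory scaffold PSD-95 that binds the tail of Nlgn1, had 0.529 and 0.221 CPM in the controls and 38.4, 29.9 and 40.2 CPM in tumour (log2 6.57, SE 0.35, edgeR adjusted p = 3.47e-05). The ratio of pooled Dlg4 counts was 95.005 with both normal libraries, 160.4 without the first and 67.0 without the second. Lhfpl4, which acts with Nlgn2 at inhibitory synapses, rose by 4.38 (SE 0.27, edgeR adjusted p = 5.08e-05). The scaffold genes Dlg3 and Dlg1 fell by 1.60 and 0.71, and both were higher with total counts only, and Dlg1 was not called without the second normal library (edgeR adjusted p = 0.0803), which left 1 call of a fall.

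Of 12 contactins and juxtaparanode partners of Cntnap2, 8 were tested, of which 5 rose, none fell by edgeR at an adjusted or unadjusted p under 0.05 or by DESeq2, and 3 did not pass. DESeq2 called 7 higher. The median over the 8 tested genes was 6.89, or 4.16 with bounds, and 4 of them had 3 or fewer normal counts. By edgeR 39.2% of all tested genes were called higher and 27.8% lower. Lgi1, a secreted protein that binds Adam22, had 0 counts in the controls and 18.7, 25.4 and 35.6 CPM in tumour, at least 216-fold higher. Its receptor gene Adam22 rose by 6.94 (SE 0.59, edgeR adjusted p = 0.000155), and Epb41l3, which anchors Cntnap proteins to the cytoskeleton, by 5.62 (SE 0.30, edgeR adjusted p = 3.57e-05). The pooled ratio of Adam22 was 115 with all libraries, 408 without the first normal library and 66.3 without the second. That of Epb41l3 was 50.2, or 79.9 without the first and 36.3 without the second.

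Of 33 other synaptic adhesion genes 26 were tested, of which 15 rose, 4 fell and 7 did not pass, with a median of 2.05. Calls over all tested genes were 39.2% higher and 27.8% lower, and 8 of the 26 had 3 or fewer normal counts. Ptprs and Ptprd encode related receptor phosphatases that bind partly the same ligands. Ptprs had 3.55 and 2.43 CPM in the controls and 92.01, 94.1 and 72.2 CPM in tumour (log2 4.85, SE 0.26, edgeR adjusted p = 3.5e-05). Ptprd had 7.49 and 6.92 CPM in the controls and 0.718, 0.774 and 1.11 CPM in tumour, and fell by 3.08 (SE 0.30, edgeR adjusted p = 0.000242), a fall that was not seen with total counts only (log2 0.09). Tenm3, a teneurin, was 252-fold higher (95% interval 116 to 686), and the adhesion gene Cadm1 rose by 3.71 (SE 0.18, edgeR adjusted p = 2.92e-05). Flrt2 fell by 2.86 and Cadm4 by 1.33, with log2 values of 0.32 and 1.86 with total counts only. In this list 8 were called higher without the first normal library and 9 without the second.

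Among 8 genes for the splicing and shedding of neurexins and neuroligins, 3 rose, 2 fell and 3 did not pass, with a median of -0.07. The shares over all tested genes were 39.2% higher and 27.8% lower, and 2 of the 8 had 3 or fewer normal counts. Khdrbs3 and Khdrbs2 encode RNA-binding proteins that regulate neurexin splicing. Khdrbs3 rose by 5.48 (SE 0.39, edgeR adjusted p = 8.38e-05). Its pooled ratio was 45.3, or 80.2 without the first normal library and 31.3 without the second. Khdrbs2, at 0 counts in normal pancreas, was at least 34.0-fold higher. The membrane protease gene Mmp24 was at least 91.9-fold higher. Psen2, which encodes a subunit of the gamma-secretase protease, fell by 1.69 (SE 0.14, edgeR adjusted p = 0.000137), and rose by 1.497 with total counts only.

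Over all 120 listed genes outside the 9, 94 were tested, of which 56 rose, 16 fell and 22 did not pass, with a median of 2.83, or 2.27 with bounds. The share of rises was 77.8% among the calls in these lists and 58.5% among all calls, and 30 of the 94 had 3 or fewer counts in normal pancreas. With total counts only, 88 were called higher and 3 lower. Rises were then 96.7% of the calls in these lists and 97.5% of all calls. Of the 16 lower genes, 11 were then called higher, 2 did not pass and 3, Nxph2, Kcnd3 and Kcnip2, were still called lower. With limma on log2(TPM + 1) the share of rises was 92.3% against 90.1% among all calls, and on log2(TPM + 0.1) it was 93.3% against 90.7%. Without normal pancreas replicate 1, 36 were called higher.

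**Figure D4:**
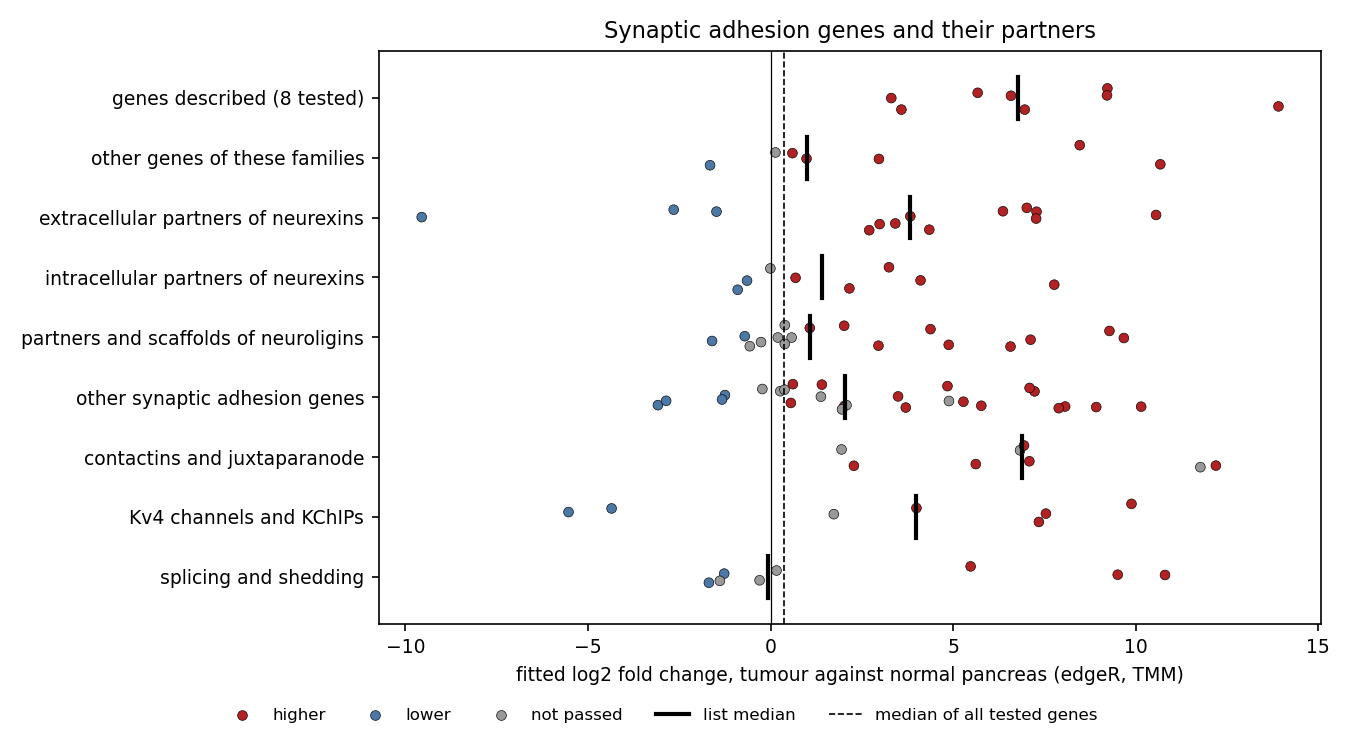
Fitted log2 fold changes of tested genes in each list (points, coloured by call at an edgeR adjusted p under 0.05), with the list median as a bar and the median of all tested genes, 0.38, as a dashed line. All 8 tested genes of the families described lie above 3, while each partner list other than the contactins holds genes on both sides of 0; values of genes at 0 counts in normal pancreas depend on the fit and are no estimate of the fold.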

How the data were processed

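RNA sequencing libraries of 3 tumours and 2 normal pancreas samples were analysed. The submitters' processing notes list STAR 2.7, RSEM 1.31 and Trim Galore 0.60, and name mm10 and GRCm38 as builds. No source used here gives their settings or annotation release. Deposited by the authors were expected counts for each gene, where RSEM divides reads that fit several genes, and TPM values, which are corrected for effective length. Per the file headers, the per-library files also give the weighted transcript length. Series and library tables differed by 0 at most, and 92 spike-in rows, all at 0 counts, were left out.

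Rounded counts entered edgeR 4.0.16 under R 4.3.3 (quasi-likelihood test, TMM, filterByExpr, Benjamini-Hochberg over 16810 genes, adjusted p under 0.05). The fit was run on simulated counts in which few genes changed, all well counted and with as many raised as lowered. That check therefore does not cover the TMM scaling of tissues as unlike as these, or genes near 0 counts in normal pancreas. SE is the absolute log2 fold change over the square root of F. A gene at 0 in a group is given as a bound against 3 counts over the group, and one with 1 to 3 counts, or named with an interval, by the ratio of pooled counts over TMM-scaled size with a 95% exact binomial interval; both cover counting error only, since reads are not independent molecules. Without a library, these keep the scaling of all 5. For shares, an exact permutation test (two-sided) was used. DESeq2 1.42.0 and limma 3.58.1 were alternatives. Coordinates are from GENCODE M21 (GRCm38), which holds 55180 of the 55573 identifiers.

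The members, lists and tests were chosen with earlier results of these data known. In each partner list the text names up to 3 genes with the smallest p in each direction, and every gene of the same families and the Kv4 list, except 2 genes counted in their lists but not reported here. Genes nearest to Dpp6 are the 5 tested protein-coding genes at the smallest distance. No explanation was tested.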

Additional observations from a re-analysis of the deposited data

How the results depend on the processing

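None of the 8 tested members reversed direction in the other settings that tested it, nor did Cntnap5a in its 7. Between 6 and 9 members were called higher, and calls were lost for Nrxn3 and Nlgn3 alone, as given in the results, and Nrxn3 was not tested among protein-coding genes outside the 50 most counted in normal pancreas. Of 120 partner genes, 56 were called higher and 16 lower. Without 1 library, 36 to 60 were called higher and 13 to 16 lower, with 36 reached without normal pancreas replicate 1 and 41 without replicate 2. With total counts only 88 were called higher and 3 lower, and limma on log2(TPM + 1) and on log2(TPM + 0.1) called 5 lower in each. With total counts only, named partner genes called lower with TMM had log2 values of 1.52 for Dpp9, 0.52 for Clstn1, 1.70 for Dag1, 2.28 for Apba1, 2.54 for Ppfia1, 2.46 for Dlg1, 1.56 for Dlg3, 0.092 for Ptprd, 0.32 for Flrt2, 1.86 for Cadm4 and 1.497 for Psen2. On log2(TPM + 0.1) and log2(TPM + 1), values above 0 were given for Dag1 (0.089 and 0.081), Apba1 (0.45 and 0.19), Ppfia1 (1.03 and 0.84), Dlg1 (1.05 and 0.91), and Cadm4 (0.22 and 0.13); Ppfia1 (limma adjusted p = 0.00848 and 0.0123) and Dlg1 (0.00194 and 0.00303) passed there as higher, and Dag1, Apba1 and Cadm4 did not pass. Fap, which was not called, ran from -0.28 without normal pancreas replicate 2 to 0.74 without replicate 1. Apart from these scalings, the cause was not tested. The neuroligin shares kept their direction as shares of counts and without each library. No paired analysis was possible because the titles give the tissues no shared replicate numbers. Depth limits Nrxn3 and Cntnap5a, with under 50 tumour counts each and 0 in normal pancreas.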
